A study of Mus musculus with 2 samples.

Results

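The receptors through which leukocytes sense chemoattractant peptides and lipids were followed in 2 single-cell RNA-seq libraries of mouse blood. The set held 7 genes of the 32285 in the files, chosen by symbol: Fpr1, Fpr2, C5ar1, C3ar1, Ltb4r1, Ptafr and Gpr132. One library was made from WT C57BL/6J mice and the other from APP/PS1 transgenic mice, a model of Alzheimer's disease with amyloid deposits. Each library pooled blood of 3 females aged 7 months after enrichment of neutrophils with an EasySep kit, and the sources used here name neither the promoter of the transgenes nor the background strain of the APP/PS1 mice. Because there was 1 library per genotype, no difference between the libraries could be tested against the spread between animals, and genotype cannot be told apart from library. Levels are given as CPM, the UMIs of a gene per 1000000 UMIs of the cell type, and each interval is an exact 95% interval that covers counting error only.

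These receptors belong to the G protein-coupled family. Most of them signal in leukocytes mainly through inhibitory G proteins, which set off actin assembly, directed migration, degranulation and the oxidative burst. The formyl peptide receptors FPR1 and FPR2 bind N-formylated peptides released by bacteria and damaged mitochondria, and FPR2 also binds serum amyloid A, annexin A1 and other host ligands. C5AR1 and C3AR1 bind the complement fragments C5a and C3a, LTB4R1 binds leukotriene B4, PTAFR binds platelet-activating factor, and GPR132 responds to lysophospholipids and oxidised fatty acids.

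In mm10 with GENCODE M21, the formyl peptide receptor genes lay side by side on chromosome 17. Fpr1 (chr17:17876471-17883940, minus strand, 2 exons) and Fpr2 (chr17:17887824-17893952, plus strand, up to 3 exons) pointed away from each other, with 3883 bp and 0 annotated genes between them. RefSeq windows of 250 bases upstream of the start were found for 7 of 7 members. Those of the Fpr1 and Fpr2 pair are shown because both genes start toward the shared gap and followed each other across cell types, and that of C3ar1 because its level set basophils apart from every other class. Each is written 5′ to 3′ on the strand of its gene in GRCm38.p6, with the core of ETS sites (AGGAA, or TTCCT on the other strand) and a GATA site (AGATAA, or TTATCT on the other strand) in capitals.
Fpr1: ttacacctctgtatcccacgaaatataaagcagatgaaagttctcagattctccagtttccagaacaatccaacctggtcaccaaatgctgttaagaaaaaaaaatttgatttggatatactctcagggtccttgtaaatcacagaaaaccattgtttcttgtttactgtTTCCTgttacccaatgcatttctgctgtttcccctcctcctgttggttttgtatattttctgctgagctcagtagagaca
Fpr2: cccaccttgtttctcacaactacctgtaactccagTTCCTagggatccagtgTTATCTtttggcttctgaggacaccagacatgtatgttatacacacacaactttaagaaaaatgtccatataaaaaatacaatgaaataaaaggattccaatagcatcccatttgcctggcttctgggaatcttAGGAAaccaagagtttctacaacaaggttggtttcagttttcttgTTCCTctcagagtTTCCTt
C3ar1: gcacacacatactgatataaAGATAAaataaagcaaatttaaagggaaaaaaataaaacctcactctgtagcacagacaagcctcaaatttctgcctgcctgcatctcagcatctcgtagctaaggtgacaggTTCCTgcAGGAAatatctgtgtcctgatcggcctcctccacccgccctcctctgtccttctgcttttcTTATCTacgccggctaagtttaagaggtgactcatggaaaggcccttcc
The windows were chr17:17883940-17884189 on the minus strand for Fpr1, chr17:17887574-17887823 on the plus strand for Fpr2 and chr6:122856158-122856407 on the minus strand for C3ar1. The Fpr1 window held 1 ETS core, the Fpr2 window 4 and the C3ar1 window 2. The GATA letters matched 0 times in the Fpr1 window, 1 time in the Fpr2 window and 2 times in the C3ar1 window. Over the 32851 RefSeq windows of the same length, 60.3% held the ETS core and 9.99% the GATA letters. A match describes the letters and no more. The Fpr1 and C3ar1 windows take in the first bases of the gene as GENCODE draws it. The windows of the other members are not shown. The remaining genes were C5ar1 (chr7:16246743-16259540, minus strand), C3ar1 (chr6:122847138-122856161, minus strand), Ltb4r1 (chr14:55765962-55768494, plus strand), Ptafr (chr4:132564067-132582683, plus strand) and Gpr132 (chr12:112850873-112868228, minus strand). Fpr2 overlaps the annotated gene Fpr3 on the same strand, so the split of reads between them is uncertain, although Fpr3 had 0 UMIs in neutrophils of either library.

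The files held 17123 cells of WT and 17645 of APP/PS1, with 92458623 and 84870864 UMIs, and 14564 and 15208 cells passed the filters of the study's methods. Of 83 barcodes found in both libraries, 63 passed in both and 11 of these fell in the same cell type. Clustering gave 14 clusters, 13 of which held over 100 cells. Each is called after the marker list that stood highest in it, and every such name means a cell that is like that type. Exceptions were the platelet-gene and the Il7r and Trdc clusters, whose naming is described with the processing. Neutrophils here are the 3 clusters led by Retnlg and Cxcl2, by Ifit3 and by Camp, with 5882 WT and 6947 APP/PS1 cells at a median of 2521 and 2639 UMIs. Of these cells 472 WT and 1166 APP/PS1 cells came from the Ifit3 cluster. A further 1696 and 2637 cells expressed neutrophil and platelet genes together and were kept apart as platelet-gene neutrophils. The 8 neutrophil markers summed to 185000 CPM in WT and 157400 in APP/PS1 neutrophils, and 0 of 8 were absent. Classical monocytes were deeper, with medians of 8180.5 and 7686 UMIs per cell.

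Neutrophils carried 6 of the 7 receptors. Together the members reached 1165 CPM (1149 to 1181) in WT and 1180 (1166 to 1195) in APP/PS1 neutrophils, so the summed intervals of the libraries overlapped. The library is a 3′ one in which 1 UMI tags 1 captured transcript end, so CPM compares transcripts between genes with no division by length, apart from differences in capture. C5ar1 made up 40.6% of the members' UMIs in WT and 42.3% in APP/PS1. Fpr2 made up 21.3% and 17.9%, Ptafr 18.4% and 20.2%, Fpr1 10.5% and 11.5%, Ltb4r1 5.81% and 6.21%, and Gpr132 3.39% and 1.88%. The C5a receptor was thus the most abundant member in neutrophils of both libraries, and Gpr132 the least abundant of those carried. C3ar1 was nearly absent, at 8 UMIs in WT and 10 in APP/PS1 neutrophils.

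**Figure D1:**
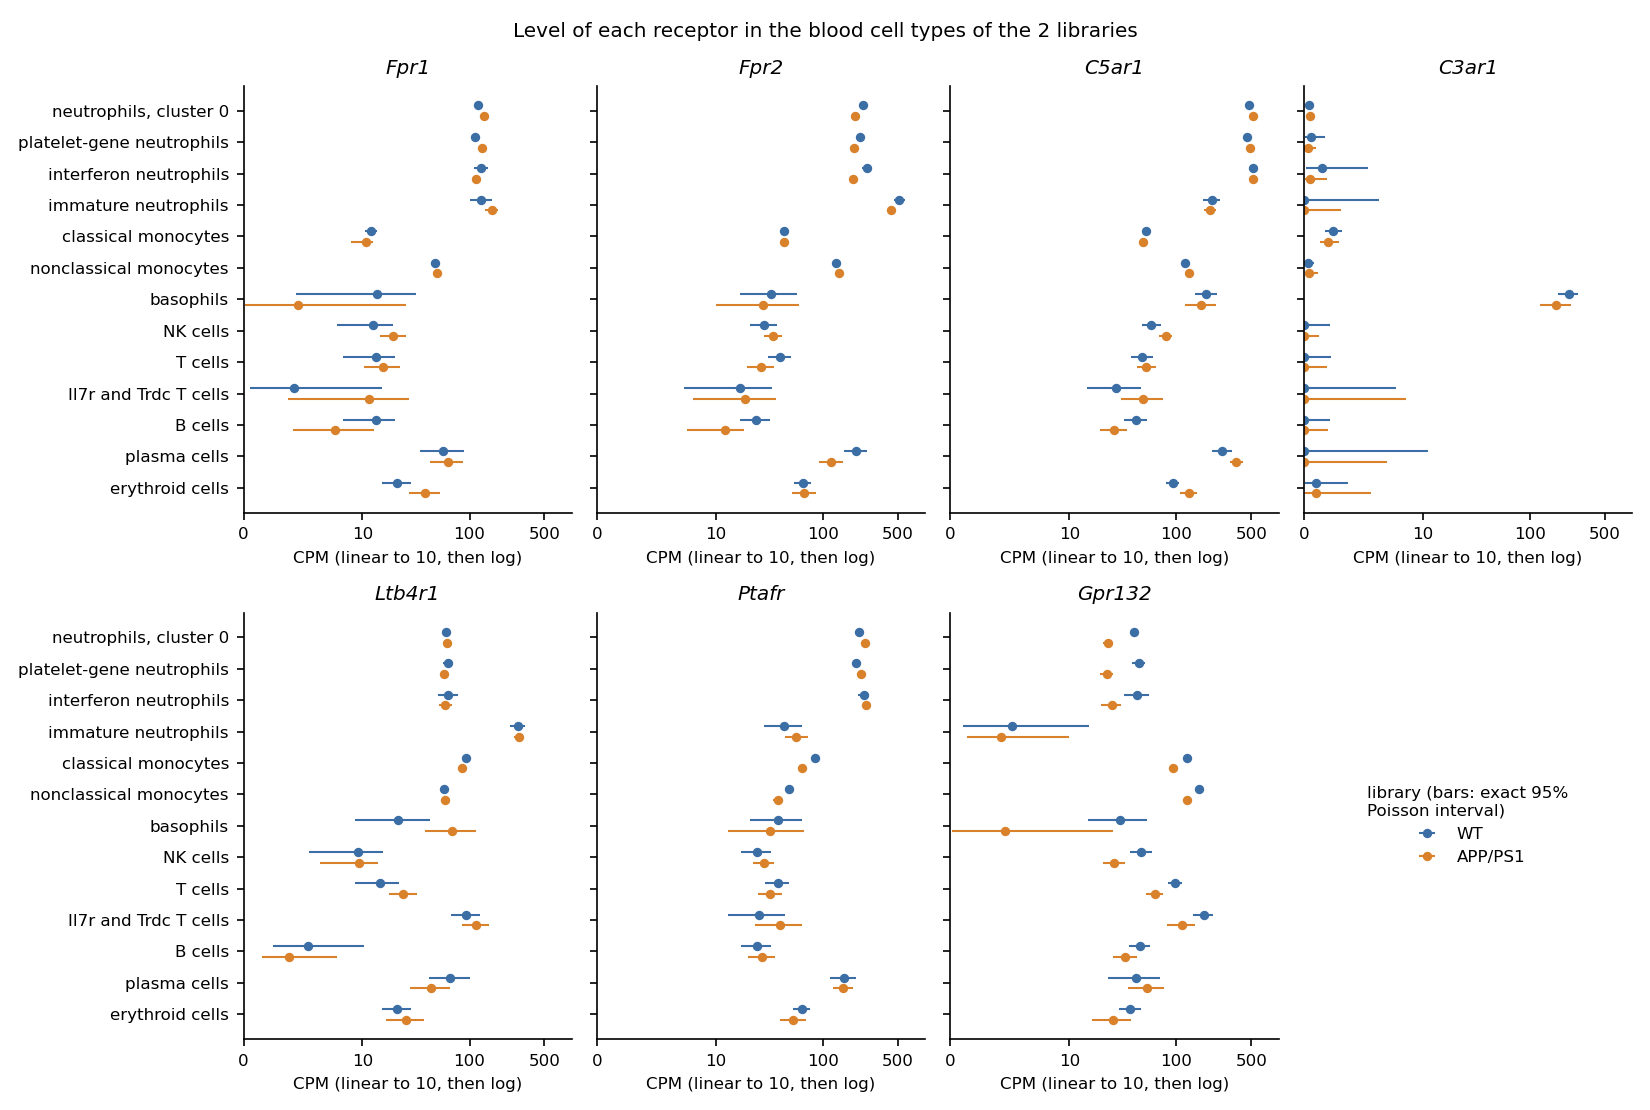
Level of each receptor (x axis, CPM, linear up to 10 and logarithmic above) in 13 blood cell types (y axis) of the WT (blue) and APP/PS1 (orange) libraries. Points are UMIs summed per library and cell type and bars exact 95% Poisson intervals. Fpr1, Fpr2, C5ar1 and Ptafr stand highest in neutrophil classes, C3ar1 in basophils at 229.9 and 175 CPM, Ltb4r1 in immature neutrophils, and Gpr132 in monocytes and T cells.

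The formyl peptide receptors were measured mainly in neutrophils. Fpr1 stood at 122 CPM (117 to 127) in WT and 135 (130.2 to 140.2) in APP/PS1 neutrophils, and Fpr2 at 248 CPM (240.1 to 255) and 212 CPM (206 to 218). In classical monocytes, the Ccr2 and Chil3 cells recruited into inflamed tissue, Fpr1 was at 11.9 CPM in WT and 10.7 in APP/PS1, and Fpr2 at 43.5 and 42.9 CPM. Nonclassical monocytes, which patrol the vessel wall and are marked by Treml4 and Ace, lay between, with Fpr1 at 47.6 and 50.04 CPM and Fpr2 at 133 and 141 CPM. The counting intervals of neither gene overlapped between neutrophils and the monocyte classes in either library. The share of all genes without such overlap is not given here. On the log2 scale the level in neutrophils exceeded that in classical monocytes by 3.35 (3.16 to 3.55) in WT and 3.66 (3.42 to 3.91) in APP/PS1 for Fpr1, and by 2.51 and 2.30 for Fpr2. The nonclassical level exceeded the classical one by 1.99 and 2.22 for Fpr1 and by 1.62 and 1.71 for Fpr2.

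The complement receptors split. C5ar1 stood at 473 CPM (463 to 484) in WT and 499.6 (490.1 to 509) in APP/PS1 neutrophils, against 51.6 and 48.4 CPM in classical and 119.9 and 130.3 CPM in nonclassical monocytes. C5ar1 was higher in neutrophils than in classical monocytes by 3.20 in WT and 3.37 in APP/PS1 on the log2 scale. These differences depend on the cells kept: without the percentile limits on genes and UMIs they were 4.13 and 4.36 for C5ar1 and 4.56 and 4.85 for Fpr1. In classical monocytes both genes lay within the range of the neutrophil markers found there, described further on. Basophils, which release histamine and type 2 cytokines, also carried C5ar1, at 189 CPM (148 to 239) in WT and 170.1 (119.8 to 234.5) in APP/PS1. C3ar1 was a basophil transcript in this blood. The 72 WT and 43 APP/PS1 basophils held 85 and 38 UMIs of C3ar1, or 229.9 CPM (184 to 284) and 175 CPM (124 to 239.8). No other class exceeded 2.42 CPM, the level in WT classical monocytes, where 50 UMIs were counted over 2506 cells. NK cells, T cells, B cells, plasma cells and immature neutrophils had 0 UMIs of C3ar1 in both libraries. Its level in basophils exceeded that in neutrophils by 8.91 (7.87 to 10.17) in WT and 8.52 (7.49 to 9.69) in APP/PS1 on the log2 scale. A C3ar1 UMI was found in 69.4% (57.5 to 79.8) of WT and 51.2% (35.5 to 66.7) of APP/PS1 basophils, at a median of 4523 UMIs per cell. In B cells, which should lack the gene and had a median of 5557 UMIs, 0 of 304 and 0 of 307 cells had one, which at a limit of 3 counts allows a UMI in 0.987% and 0.977% of cells, and by the exact 95% interval in up to 1.21% and 1.19%.

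The lipid receptors followed 3 patterns. Ptafr resembled the peptide receptors, at 215 CPM (208 to 222) in WT and 238 (231 to 244) in APP/PS1 neutrophils, 84.5 and 63.6 CPM in classical monocytes and 48.4 and 38.3 CPM in nonclassical monocytes. Unlike Fpr1, Fpr2 and C5ar1, which were higher in nonclassical than in classical monocytes, Ptafr was lower there by 0.80 in WT and 0.73 in APP/PS1 on the log2 scale. Ltb4r1 differed least between the classes, at 67.7 and 73.3 CPM in neutrophils, 93 and 84.9 CPM in classical and 57.97 and 58.99 CPM in nonclassical monocytes. Its neutrophil level was lower than the classical monocyte level by 0.46 in WT and 0.21 in APP/PS1 on the log2 scale, but higher by 0.21 and 0.47 with TMM library sizes (trimmed means of the ratios of genes), so its direction depends on the scaling. Gpr132 ran the other way. It stood at 39.5 CPM (36.5 to 42.6) in WT and 22.2 (20.3 to 24.4) in APP/PS1 neutrophils, 126 and 93 CPM in classical monocytes and 163 and 124 CPM in nonclassical monocytes.

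Of the 6 members with at least 200 UMIs in one of the classes in both libraries, 4 were higher in neutrophils than in classical monocytes by over 1 on the log2 scale in both libraries (Fpr1, Fpr2, C5ar1 and Ptafr), where 11.9% of 6743 genes were. Gpr132 alone was lower by over 1, where 38.9% of genes were, with differences of -1.68 in WT and -2.06 in APP/PS1. The median gene was lower in neutrophils by 0.64, and TMM library sizes raised every neutrophil value against classical monocytes by 0.67 (WT) and 0.68 (APP/PS1). Taken relative to that shift, the 4 members stayed above and Gpr132 below. With TMM library sizes Gpr132 was at -1.004 in WT, at the edge of the limit of 1, and at -1.38 in APP/PS1. Against nonclassical monocytes, Fpr1, C5ar1 and Ptafr were over 1 higher in neutrophils of both libraries (11.9% of 6022 genes), and Fpr2 was higher by 0.90 in WT and 0.59 in APP/PS1. Ptafr showed the largest of these differences, at 2.15 and 2.63.

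Ltb4r1 and Gpr132 were also found in lymphoid cells. In T cells marked by Il7r and Trdc (90 WT and 75 APP/PS1 cells), Ltb4r1 reached 92.8 CPM and 114 CPM, above the 14.6 and 24.1 CPM of the other T cells by 2.67 (1.92 to 3.45) in WT and 2.24 (1.63 to 2.86) in APP/PS1 on the log2 scale. Those values rest on 44 and 49 UMIs. Gpr132 in the same cells was at 179 and 112 CPM, on 85 and 48 UMIs, and its intervals overlapped those of nonclassical monocytes. T cells carried Gpr132 at 97.3 and 63.1 CPM, and B cells at 45.4 and 33.4 CPM.

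Neutrophil RNA was counted in every class of the blood, so each receptor was set beside the 8 neutrophil markers (S100a8, S100a9, Csf3r, Retnlg, Hdc, Cxcr2, Mmp9 and Ly6g) as a percent of its level in neutrophils. In classical monocytes these markers stood at 5.40% to 12.1% of the neutrophil level in WT and 4.95% to 11.6% in APP/PS1, and 0 of 8 were absent. Fpr1, at 9.81% and 7.93%, and C5ar1, at 10.9% and 9.68%, lay inside that range. Its top was set by Csf3r, and both receptors stood above the next highest marker, at 7.9% and 7.1%. Whether either exceeded the background of neutrophil RNA in classical monocytes was not tested. Fpr2 (17.6% and 20.3%), Ptafr (39.4% and 26.7%), Ltb4r1 (137% and 116%) and Gpr132 (319% and 418%) lay above the whole range. In nonclassical monocytes, where the markers stood at 7.82% to 16.8% and 8.12% to 17.4%, Fpr1 (39.03% and 37.02%), Fpr2 (53.8% and 66.5%) and C5ar1 (25.3% and 26.1%) exceeded every marker. Ptafr there was at 22.5% in WT, above the markers, and at 16.1% in APP/PS1, inside their range. In that library only Csf3r stood above Ptafr, and the next marker was at 13.15%. In B cells of WT, with markers at 6.25% to 9.21%, Fpr1 was at 10.9%, Fpr2 at 9.54%, C5ar1 at 8.83%, Ltb4r1 at 8.06%, Ptafr at 11.3% and Gpr132 at 115%. In those of APP/PS1, with markers at 1.81% to 6.56%, Fpr1 was at 5.66%, Fpr2 at 5.68%, C5ar1 at 5.25%, Ltb4r1 at 5.22%, Ptafr at 11.3% and Gpr132 at 150%. Ptafr and Gpr132 thus exceeded every marker in B cells of both libraries, and Fpr1 and Fpr2 did so in WT. In plasma cells the markers summed to 51.7% of the neutrophil level in WT and 36.2% in APP/PS1, and the receptors there are not read as expression by plasma cells. The C5ar1 of basophils, at 40% and 34.05%, stood above 7 of the 8 markers, which reached at most 28.0% and 28.4% when Hdc, a gene basophils also use, was set aside.

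**Figure D2:**
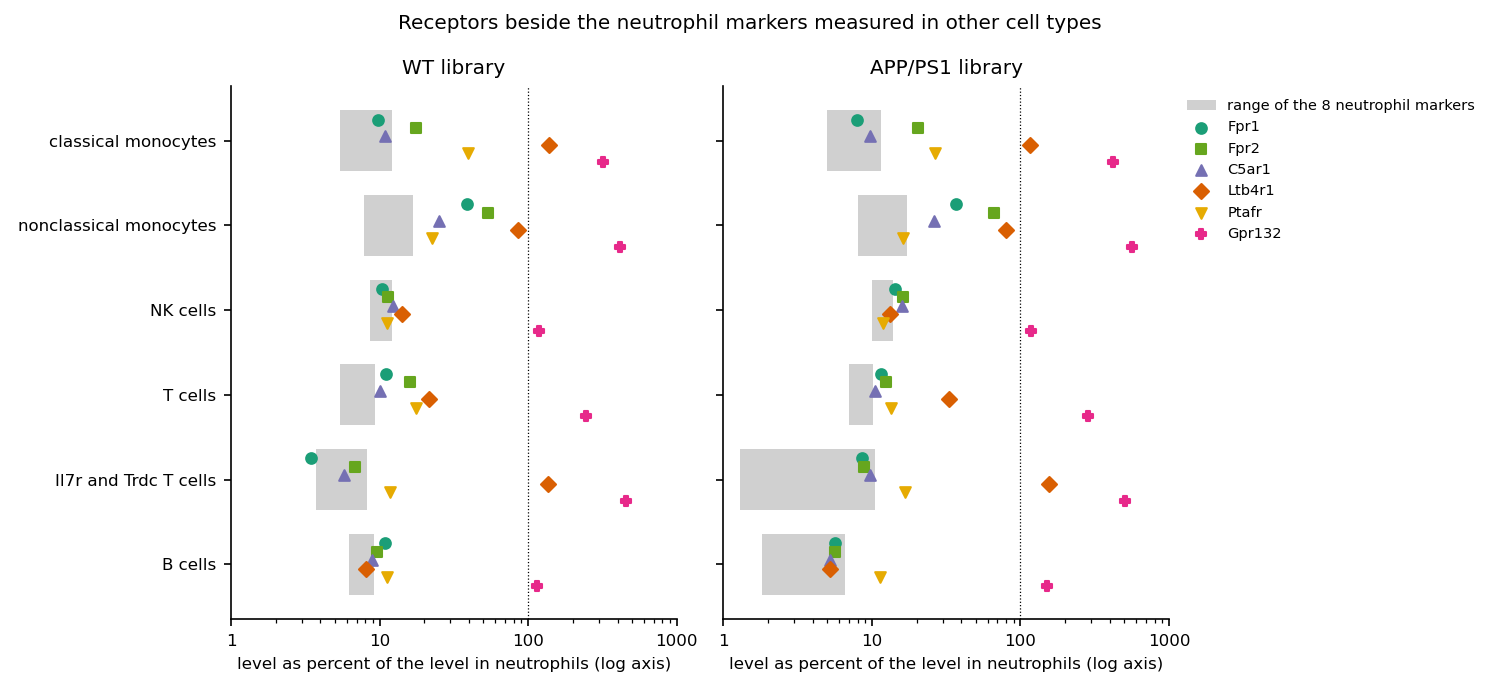
Level of 6 receptors (symbols) in 6 cell types as a percent of their level in neutrophils of the same library (x axis, log scale), for WT (left) and APP/PS1 (right). Grey bars span the lowest to highest of the 8 neutrophil markers and the dotted line marks the neutrophil level. In classical monocytes Fpr1 and C5ar1 fall within the grey bar, and Gpr132 lies at 319% and 418%.

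Per cell, the receptors were read at 1 depth by thinning every cell to 1000 UMIs. C5ar1 was then found in 37.2% of WT and 39.6% of APP/PS1 neutrophils, against 1.97% and 1.95% of B cells. Fpr2 was found in 20.1% and 17.3% of neutrophils and 1.64% and 0.977% of B cells, Ptafr in 19.6% and 21.3%, Fpr1 in 10.98% and 11.9%, Ltb4r1 in 5.97% and 5.93%, and Gpr132 in 4.06% and 2.03%. The Gpr132 share in neutrophils did not exceed the 4.61% (2.54 to 7.61) of WT and 3.58% (1.80 to 6.32) of APP/PS1 B cells, which carried the gene above the neutrophil markers and whose median depth was 5557 UMIs before thinning. At the deposited depth the neutrophil shares were 69.4% and 72.2% for C5ar1, 42.8% and 38.6% for Fpr2, 41.1% and 45.8% for Ptafr, 25.9% and 28.6% for Fpr1, 15.2% and 16.1% for Ltb4r1 and 9.86% and 5.96% for Gpr132. At that depth 66.2% of WT and 67.3% of APP/PS1 neutrophils had a UMI of at least 2 members, and 7.55% and 7.21% had none. After thinning these figures were 24.9% and 25.4%, and 32.4% and 32.4%. Neutrophils of the libraries therefore held a like number of the receptors per cell at equal depth.

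Between the libraries, Gpr132 was the member that differed most in neutrophils. It stood at 39.5 CPM (661 UMIs) in the WT library against 22.2 CPM (467 UMIs) in the other, a log2 ratio of -0.83 (-1.0 to -0.65). Fpr2 was lower in APP/PS1 by a smaller amount, at 248 CPM in WT against 212 CPM (4145 and 4444 UMIs), a log2 ratio of -0.23 (-0.29 to -0.16). The other receptors were slightly higher in APP/PS1, with log2 ratios of 0.15 (0.07 to 0.23) for Fpr1, 0.15 (0.09 to 0.21) for Ptafr, 0.12 (0.00 to 0.23) for Ltb4r1 and 0.08 (0.04 to 0.12) for C5ar1. C3ar1 had too few UMIs to compare, with an interval of -1.5 to 1.54. Of the 6 members with at least 200 UMIs in one library, 1 was past 0.5 on the log2 scale, Gpr132, and it was lower, where 2.47% of 5436 genes were over 0.5 lower and 2.78% over 0.5 higher in APP/PS1. The median over the 6 members was 0.10, and over all genes tested 0.06. The intervals of C5ar1 and Ltb4r1 took in that median over all genes, so neither stood apart from the median gene. Fpr1 and Fpr2 thus went opposite ways between the libraries in the same cells, and neither interval reached 0. In TMM scaling each neutrophil ratio was lower by 0.05, a shift larger than the lower ends of the C5ar1 and Ltb4r1 intervals.

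**Figure D3:**
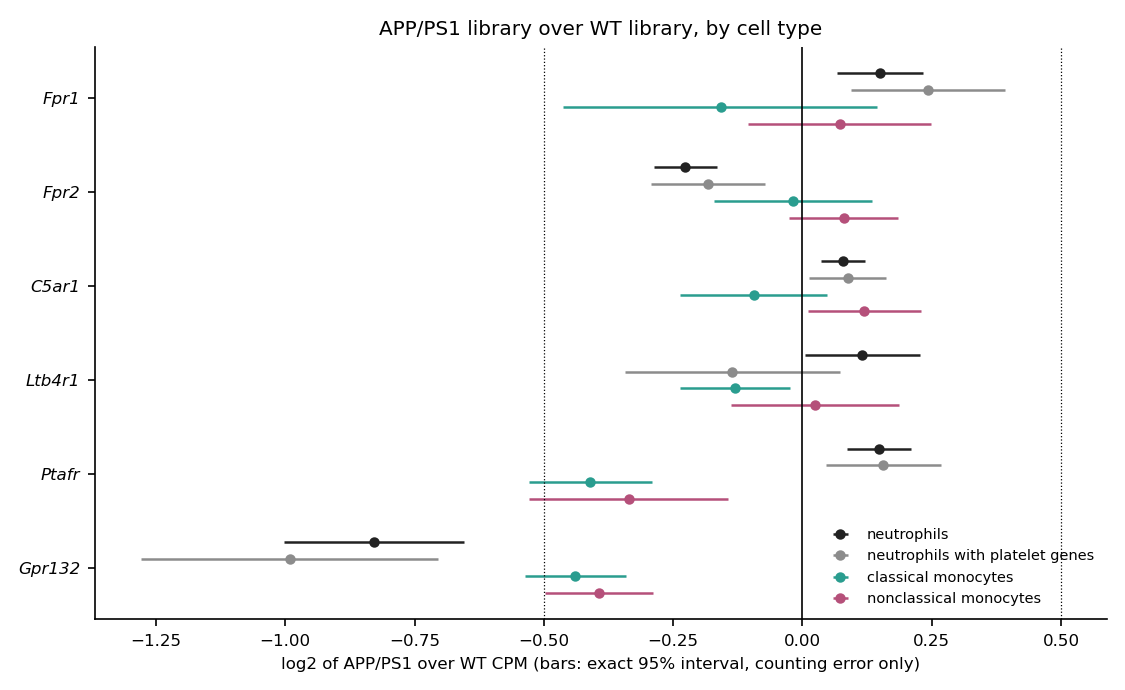
APP/PS1 over WT level of 6 receptors (x axis, log2 ratio of CPM) in neutrophils, platelet-gene neutrophils, and classical and nonclassical monocytes, shown where one library had at least 200 UMIs. Bars are exact 95% intervals for counting error, the solid line marks no difference and the dotted lines 0.5. Gpr132 is below 0 in all 4 classes and Fpr2 is below 0 in both neutrophil classes.

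Gpr132 was lower in APP/PS1 in 12 of the 13 classes, and its interval lay below 0 in 8 of them. The share of all genes lower in as many classes is not given here. The Gpr132 interval took in 0 in B cells, erythroid cells, basophils and immature neutrophils. Only 4 classes had at least 200 UMIs of Gpr132 in one library, and it was lower in each of these. The log2 ratio was -0.99 (-1.28 to -0.71) in platelet-gene neutrophils, -0.44 (-0.54 to -0.34) in classical monocytes and -0.39 (-0.50 to -0.29) in nonclassical monocytes. It was -0.83 (-1.31 to -0.36) in NK cells, -0.62 (-0.98 to -0.27) in T cells and -0.68 (-1.22 to -0.16) in the Il7r and Trdc T cells, on fewer UMIs. The exception was plasma cells, at 0.33 (-0.64 to 1.37) on 14 and 28 UMIs. The interval lay below 0 in neutrophils, platelet-gene neutrophils and both monocyte classes, which held for 6.45% of the 3458 genes with enough UMIs in these 4 classes. None of the other members with enough UMIs had its interval on one side of 0 in all 4. The intervals of the log2 ratio in neutrophils and in classical monocytes did not overlap, so the gap between those ratios was wider than counting error. The share of all genes with such a gap is not given here. Within 1 Mb of Gpr132, 11 of 138 annotated genes had enough UMIs in neutrophils, and their median log2 ratio was 0.05. One of these, Pld4, which encodes an endolysosomal exonuclease and lies 81883 bp away, was lower by over 0.5, at 13.6 CPM in WT and 8.05 in APP/PS1 (227 and 169 UMIs). Igha, the immunoglobulin A constant gene, was higher, at 4.6 and 35.9 CPM, and the kinase gene Akt1 was at 96.7 and 100.2 CPM.

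The other members varied by cell type. Ptafr was slightly higher in APP/PS1 neutrophils but lower in APP/PS1 classical monocytes, at 84.5 CPM in WT and 63.6 in APP/PS1, a log2 ratio of -0.41 (-0.53 to -0.29), and in nonclassical monocytes, at -0.34 (-0.53 to -0.14). In classical monocytes 0 of 6 members were past 0.5 (3.04% of 7231 genes either way), and the remaining log2 ratios were -0.16 (-0.46 to 0.14) for Fpr1, -0.02 (-0.17 to 0.13) for Fpr2, -0.09 (-0.24 to 0.05) for C5ar1 and -0.13 (-0.24 to -0.02) for Ltb4r1. The summed neutrophil markers in classical monocytes stood at 11830 CPM in WT and 8860 in APP/PS1, and their part in these ratios was not tested. In nonclassical monocytes 0 of 6 were past 0.5 as well (2.67% of 6299 genes), with Fpr1, Fpr2, C5ar1 and Ltb4r1 between 0.02 and 0.12. Fpr2 was lower in APP/PS1 in each neutrophil class, including platelet-gene neutrophils at -0.18 (-0.29 to -0.07) and the Ifit3 cluster at -0.44 (-0.63 to -0.25), while its interval in both monocyte classes took in 0. The difference between these ratios was not tested. On fewer than 70 UMIs per library, Fpr2 was also lower in T cells (-0.59, -1.16 to -0.04), B cells (-0.97, -1.80 to -0.18) and plasma cells (-0.76, -1.28 to -0.24). The summed neutrophil markers stood at 12830 and 6512 CPM in B cells, 95670 and 57040 CPM in plasma cells and 13920 and 14520 CPM in T cells, and their part in these ratios was not tested.

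Immature neutrophils carried the receptors in other proportions. The Camp cluster, whose cells express the secondary granule genes Camp, Ngp, Ltf, Lcn2 and Cd177 that neutrophils make in the bone marrow, held 88 WT and 174 APP/PS1 cells at a median of 6514 UMIs. Ltb4r1 reached 281 CPM (239 to 328) in WT and 288 (258 to 320.5) in APP/PS1 immature neutrophils, against 59.8 and 61 CPM in the largest neutrophil cluster. Fpr2 reached 517 and 436 CPM against 236 and 200.2 CPM. C5ar1 stood at 214 and 208 CPM against 479.5 and 517 CPM, Ptafr at 43.1 and 56.6 CPM against 219 and 248 CPM, and Gpr132 at 3 and 5 UMIs against 601 and 372. Fpr1 was at 129 and 161 CPM against 121 and 138 CPM, a log2 difference of 0.10 in WT and 0.23 in APP/PS1. The log2 differences were 2.23 (1.98 to 2.48) in WT and 2.24 (2.06 to 2.42) in APP/PS1 for Ltb4r1 and 1.13 and 1.12 for Fpr2, so 2 of 6 members were over 1 higher in both libraries, where 3.77% of 4641 genes were. They were -1.17 and -1.32 for C5ar1, -2.35 and -2.13 for Ptafr and -2.97 and -2.42 for Gpr132, so 3 of 6 were over 1 lower, where 14.9% of genes were. The median gene had a log2 difference of -0.34 in this comparison. The counts past 1 were not adjusted for that shift, and C5ar1 lay nearest the limit of the 3 lower members. Fpr2 was the leading receptor of immature neutrophils, with 43.5% of the members' UMIs in WT and 37.8% in APP/PS1, and Ltb4r1 held 23.6% and 24.96%. The sum of the members was 1189 CPM (1102 to 1281) in WT and 1154 (1093 to 1217) in APP/PS1 immature neutrophils, and its intervals overlapped those of the largest cluster, at 1156 and 1187 CPM. Without the immature cells the neutrophil log2 ratio of Ltb4r1 between the libraries was 0.02, against 0.12 with them.

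A second clustering of the neutrophil classes, platelet-gene cells included, gave 6 clusters, each named here by its leading genes. The cluster led by the stefin gene Stfa2 held 2781 WT and 2665 APP/PS1 cells, and the cluster led by Dusp2 and Nfkbia, genes of the early response to stimulation, held 1546 and 2768. The Camp cluster of this second clustering held 180 WT and 224 APP/PS1 cells, and the Ifit cluster 1542 and 1757. Neither is the same set of cells as in the first clustering. Ptafr was higher in the Dusp2 cluster, at 310.3 and 307 CPM against 177 and 199.5 CPM in the Stfa2 cluster, by 0.81 (0.69 to 0.93) in WT and 0.62 (0.53 to 0.72) in APP/PS1 on the log2 scale. It was the 1 member of 6 over 0.5 higher in both libraries, where 9.13% of 3111 genes were. Ptafr lay below the limit of 1 used between cell types, and this count is not read as a result about the members. Gpr132 was higher there by 0.24 (-0.05 to 0.53) in WT and 0.96 (0.64 to 1.28) in APP/PS1. C5ar1 moved the same way by 0.26 and 0.19. Fpr1, Fpr2 and Ltb4r1 moved the other way, by -0.44 and -0.67, by -0.38 and -0.37, and by -0.31 and -0.41. Across these clusters the formyl peptide receptors and Ptafr therefore stood in opposite orders. The median gene was higher in the Dusp2 cluster by 0.23, and the median depth was 2225 UMIs there against 2719.

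**Figure D4:**
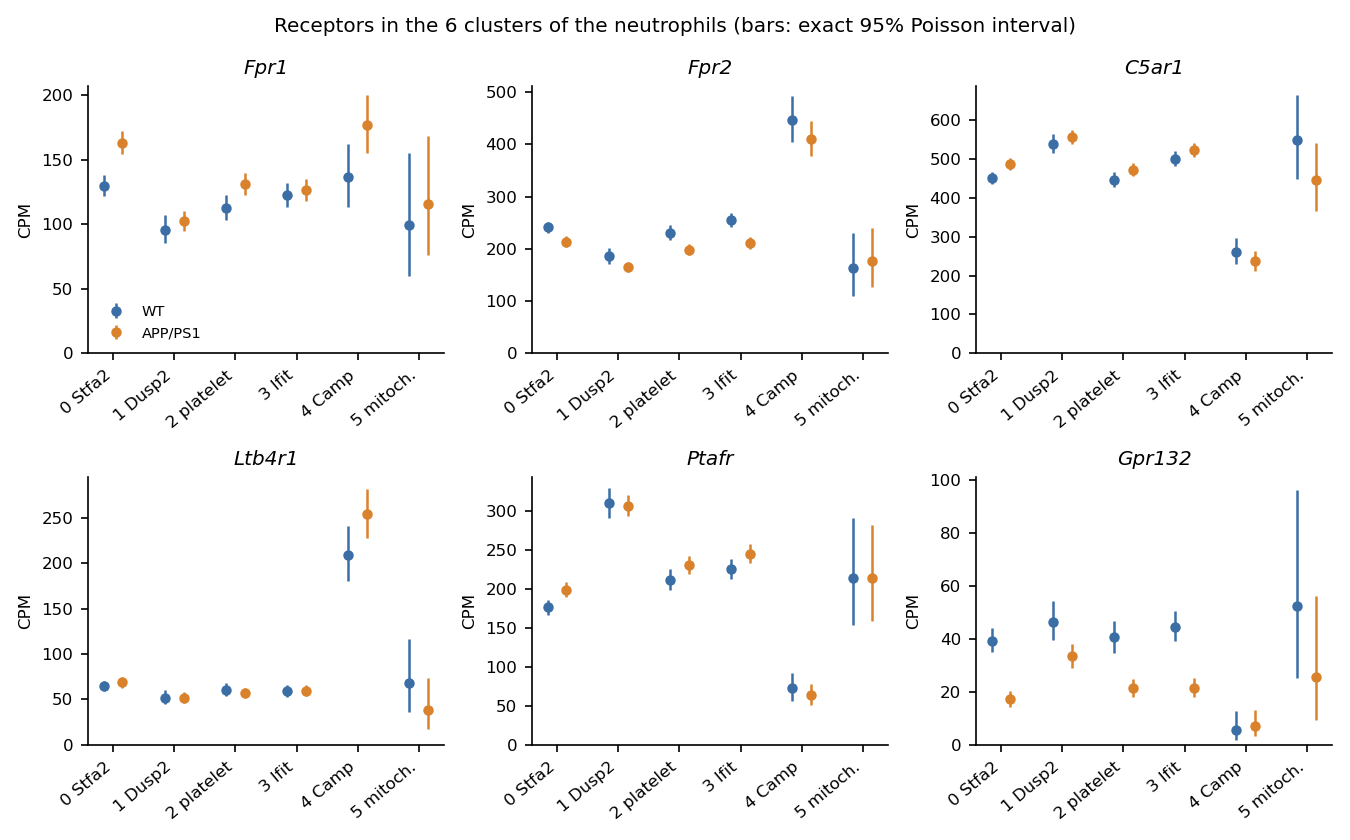
Level (y axis, CPM from 0) of 6 receptors in the 6 clusters of a second clustering of neutrophils (x axis, named by leading genes) in WT (blue) and APP/PS1 (orange). Bars are exact 95% Poisson intervals. The Camp cluster is high in Fpr2 and Ltb4r1 and low in C5ar1, Ptafr and Gpr132, the Dusp2 cluster is high in Ptafr, and Gpr132 is lower in APP/PS1 in the Stfa2, Dusp2, platelet-gene and Ifit clusters.

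Between the libraries, the ratios within these clusters varied by receptor. Gpr132 was lower in APP/PS1 by 1.19 (0.89 to 1.5) in the Stfa2 cluster, where it was at 39.3 (WT) and 17.2 CPM (APP/PS1), and by 0.48 (0.17 to 0.78) in the Dusp2 cluster, at 46.5 and 33.4 CPM. The log2 ratios were -0.93 in the platelet-gene cluster and -1.06 in the Ifit cluster. In the Camp cluster Gpr132 had 5 and 10 UMIs, too few to compare. Fpr2 was lower in the Stfa2, Dusp2, platelet-gene and Ifit clusters, at -0.18, -0.17, -0.22 and -0.28. In the Camp cluster it was at -0.12 (-0.31 to 0.06), an interval that took in 0. Fpr1 was higher by 0.33 (0.21 to 0.45) in the Stfa2 cluster, by 0.22 in the platelet-gene cluster and by 0.38 (0.06 to 0.70) in the Camp cluster, while in the Dusp2 and Ifit clusters, at 0.09 and 0.05, the intervals took in 0. Ptafr was at 0.18 (0.07 to 0.28) in the Stfa2 cluster and 0.12 in both the platelet-gene and the Ifit cluster. It was at -0.02 (-0.12 to 0.09) in the Dusp2 cluster. In the Camp cluster it was at -0.20 (-0.67 to 0.28) on 67 and 90 UMIs, too few to compare. C5ar1 was at 0.11 (0.04 to 0.18) in the Stfa2 cluster, and in each other cluster its interval took in 0. Ltb4r1 lay between -0.09 and 0.10 in the Stfa2, Dusp2, platelet-gene and Ifit clusters, with intervals that took in 0, and at 0.28 (0.02 to 0.54) in the Camp cluster. In the smaller immature class of the first clustering (88 WT and 174 APP/PS1 cells) Ltb4r1 was at 0.04 (-0.24 to 0.32) and Fpr1 at 0.32 (-0.08 to 0.72). In the Camp cluster here the secondary granule genes summed to 43390 CPM in WT and 52400 in APP/PS1, against 66040 and 62540 in that class. The part of these levels in the ratios was not tested. In the cluster led by mitochondrial genes, with 72 and 80 cells, every interval took in 0. A ratio formed within each cluster and then averaged was -0.90 for Gpr132, -0.20 for Fpr2 and 0.19 for Fpr1, against -0.83, -0.23 and 0.15 over the neutrophil class. The clusters include the platelet-gene cells, which that class leaves out, so these values also differ in the cells used.

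Across 26 profiles (13 cell types in 2 libraries), each receptor was set beside 9090 genes by Pearson's r of log2(CPM + 1). The profiles share libraries and the background of neutrophil RNA, so r is given as a description. The genes most like Fpr1 were the myeloid receptor genes Trem3 (0.96) and Siglece (0.96) and AA467197 (0.95). Those most like Fpr2 were the kinase gene Bmx (0.95), the mast cell and myeloid membrane protein gene Mcemp1 (0.95) and Fpr1 (0.95). For C5ar1 they were Grina (0.98), the chemokine receptor gene Cxcr2 (0.98) and C5ar2 (0.97), which encodes the second C5a receptor. For C3ar1 they were the basophil protease genes Mcpt8 (0.97) and Prss34 (0.97) and the transcription factor gene Gata2 (0.90). For Ptafr they were Tnfaip2 (0.96), Dck (0.95) and Tctex1d2 (0.95). Ltb4r1 (Vsir at 0.86, Lgals3 at 0.85 and Fam129a at 0.85) and Gpr132 (9130401M01Rik at 0.87, Aup1 at 0.87 and Mrps28 at 0.86) had looser matches. Among the members, Fpr1 and Fpr2 were closest at 0.95, followed by Fpr1 and C5ar1 at 0.85 and by C5ar1 and Ptafr at 0.84, and Gpr132 ran against C5ar1 at -0.44.

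The wider pathway was read from 3 lists. Of all genes tested in neutrophils, 2.78% were over 0.5 higher in APP/PS1 and 2.47% over 0.5 lower. Of 16 related receptors, 4 had enough UMIs in neutrophils, and 1 was over 0.5 higher in APP/PS1 and 0 over 0.5 lower: Ptger2, a prostaglandin E2 receptor, at 6.99 CPM in WT and 12.4 in APP/PS1 (117 and 260 UMIs), a log2 ratio of 0.83 (0.51 to 1.15). Gpr35, a receptor of tryptophan metabolites, was at 89 and 67.8 CPM with a log2 ratio of -0.39, C5ar2 at 89.2 and 100.5 CPM with 0.17, and the sphingosine phosphate receptor gene S1pr4 at 22.1 and 25.5 CPM with 0.21. The formyl peptide receptor relatives Fpr3, Fpr-rs3, Fpr-rs4, Fpr-rs6 and Fpr-rs7 had 0 UMIs in neutrophils of both libraries. Of 28 genes for signalling below the receptors, 25 had enough UMIs and 1 was lower by over 0.5: Rgs1, whose product shuts off inhibitory G protein signals, at 81.7 and 44.4 CPM, a log2 ratio of -0.88 (-1.0 to -0.76). Rgs2 was at 1594 and 1300 CPM, a log2 ratio of -0.29, while Gna13 and Rgs14 were each at 0.21. Gnai2, the main inhibitory G protein subunit of leukocytes, was at 1411 and 1402 CPM, the GTPase gene Rac2 at 1152 and 1226 CPM and Gng5 at 982 and 1117 CPM. Of 16 genes for ligands and for enzymes that make or clear them, 10 had enough UMIs and 1 was over 0.5 higher, Camp, whose peptide product binds FPR2, at 686 and 1015 CPM with a log2 ratio of 0.56. The 88 WT and 174 APP/PS1 immature cells held 11420 of the 11494 and 21032 of the 21323 UMIs of Camp, and within them Camp was lower in APP/PS1, with a log2 ratio of -0.13 (-0.16 to -0.09). Alox5ap, needed to make leukotriene B4, was at 1513 and 1598 CPM, Anxa1 at 874 and 951 CPM, Pla2g7, which breaks down platelet-activating factor, at 744 and 858 CPM with 0.21, C3 at 77.5 and 92.6 CPM with 0.26, and Lta4h at 20.9 and 17.9 CPM with -0.22. In classical monocytes 6 related receptors, 27 signalling genes and 11 ligand and enzyme genes had enough UMIs, and 0 of them were past 0.5, where 3.04% of all genes tested were. Below that limit, Camp was at 1.32 (0.94 to 1.70) on 95 and 156 UMIs and Gna15 at 0.90 (0.58 to 1.24) on 141 and 174 UMIs.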

How the data were processed

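Blood cells enriched for neutrophils were profiled with the 10x Genomics 3′ v3.0 kit, 1 library per genotype. The authors deposited matrices of raw UMI counts, for which the submitters' processing notes name Cell Ranger 5.0.0 and mm10. Cells outside the 5th and 95th percentiles of genes or UMIs of their library, or above 10% mitochondrial UMIs, were removed, and genes in fewer than 3 cells were left out, following the methods of the study. Cells were clustered with Seurat 5.3.0 in R 4.3.3 (log-normalization to 10000, 2000 variable features, 15 principal components, resolution 0.2), and neutrophils again after integration of the libraries at resolution 0.3. The members and pathway genes were kept out of the clustering features, as were, in the second clustering, genes over 0.5 log2 apart between the libraries. No doublet removal was stated, and none was applied; leaving out the 8% of cells with the highest Scrublet score (scanpy 1.11.5) was an alternative. A cluster took the name of the marker list with the highest mean log2 ratio over all kept cells, if that was at least 0.5. The cluster where the platelet list stood highest was called platelet-gene neutrophils, because its neutrophil list also reached 0.5. Of the T cell clusters, the one with Il7r and without Cd8b1 among its leading genes was called after Il7r and Trdc.

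UMIs were summed per library and cell type and divided by the sum over all genes. Poisson intervals for levels, Clopper-Pearson intervals for shares and conditional binomial intervals for ratios were exact (scipy 1.17.1) and were tested on simulated data. Genes with at least 200 UMIs in one library entered the counts past 0.5 (between libraries, the fold limit of the study) or 1 (between cell types) on the log2 scale. The count between the Dusp2 and Stfa2 clusters used 0.5. No test was possible with 1 library per genotype, and a pool of 3 mice gives no spread between animals. For each member the 3 genes with the most similar profile were named, and from each pathway list up to 4 genes by change and 4 by level with enough UMIs. The members, gene lists and markers were chosen with earlier results of these data known. The naming limit, the 200-UMI limit and the exclusion of platelet-gene cells from neutrophils were set after seeing the data. Alternatives were other filters, clustering settings, scalings (TMM from edgeR 4.0.16), thinning to 1000 UMIs, and other neutrophil classes. Coordinates came from GENCODE M21 on mm10 and upstream sequences from RefSeq on GRCm38.p6.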

Additional observations from a re-analysis of the deposited data

Results flagged for a closer look

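Ptafr and Ltb4r1 had intervals on opposite sides of 0 in neutrophils and in a monocyte class. The share of all genes with such intervals is not given here. The median log2 ratio over all genes tested was 0.06 in neutrophils and -0.04 in classical monocytes. The log2 ratio of APP/PS1 over WT for Ptafr was lower in classical monocytes than in neutrophils by 0.56 (a difference of -0.56), and in nonclassical monocytes the difference was -0.48. For Ltb4r1 the difference between classical monocytes and neutrophils was -0.25, and this one rests on the immature cells: without them the neutrophil log2 ratio of Ltb4r1 was 0.02, and in the largest neutrophil cluster it was 0.03 (-0.10 to 0.16). The difference was not tested in these cases, since each class has 1 library per genotype.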

How the results depend on the processing

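No paired analysis was possible because each genotype had 1 library. In neutrophils 1 member, and between neutrophils and classical monocytes 5 members, were past the limits as reported and under each alternative run. In classical monocytes the count past 0.5 rose from 0 to 2 with no percentile limits, where Gpr132 was at -0.52 and Ptafr at -0.51, and to 1 with cells thinned to 1000 UMIs, where Fpr1 was at 1.17 on few UMIs. Leaving out cells with the highest Scrublet scores brought Fpr1 in classical monocytes to 0.50. Of 294 recomputed member values, 281 kept their sign, 243 stayed within their counting interval and 51 moved beyond it. Gpr132 in neutrophils ranged from -1.0 to -0.79, Fpr2 from -0.27 to -0.20, Fpr1 from 0.10 to 0.19 and Ptafr from 0.10 to 0.17, while Ltb4r1 ranged from -0.01 to 0.16. The largest log2 differences between neutrophils and classical monocytes ranged from 3.30 to 4.58 in WT and 3.48 to 4.85 in APP/PS1 for Fpr1, and from 3.15 to 4.13 and 3.22 to 4.36 for C5ar1. The 30-component and unlimited clusterings did not separate platelet-gene neutrophils. Including those cells and leaving out the immature cells were chosen after seeing the data. C3ar1 in neutrophils and every receptor in immature neutrophils, basophils and Il7r and Trdc T cells are limited by their few cells and UMIs.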
